A study of Homo sapiens with 6 samples.

Results

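The 38 genes described here carry glucose from its uptake to lactate, to pyruvate entry into mitochondria and into or out of glycogen. They were taken by symbol from a table of 20442 genes, and all 38 were found in it and passed the filter on low counts, which left 12650 genes. RNA was sequenced from T24, a long-established human cell line from a bladder tumour, treated for 24 h with an siRNA against KNSTRN (si-KNSTRN, 3 libraries) or with a control siRNA (si-NC, 3 libraries). All cells of both groups came from the same line, had been allowed to attach for 24 h before treatment and grew in RPMI1640 with serum, and the design text calls the libraries biological replicates. KNSTRN encodes a protein of the mitotic spindle and kinetochore. The number of siRNAs against KNSTRN is not given in the sources used here.

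Libraries held between 16386799 and 20596074 counted reads, so that 3 reads, the limit for a count of 0, stood for 0.146 to 0.183 CPM (reads per 1000000 counted reads), a limit that covers counting error only. The read counts of KNSTRN itself were 269, 245 and 226 in the si-KNSTRN group, against 777, 663 and 762 in the si-NC group (log2 fold change -1.62, adjusted p = 1.7e-11, SE 0.072 by edgeR). Of 12 epithelial and bladder markers, the keratin genes KRT7, KRT8 and KRT18 were abundant in all libraries, at 843 to 1186 CPM on average per group. KRT5, CDH1 and UPK3A had no read in any library, and EPCAM, GATA3, KRT19 and UPK1A averaged only 0.175 to 1.64 CPM per group. PPARG averaged 44.8 CPM in si-KNSTRN cells and 28.7 CPM in si-NC cells. The summed level of the 12 epithelial markers ran from 3123 to 3294 CPM in si-KNSTRN libraries and from 2863 to 3033 CPM in si-NC libraries. Most of this sum came from KRT7, KRT8 and KRT18. The 12 markers of immune, endothelial and mesenchymal cells summed to 73.5 to 74.0 CPM in si-KNSTRN libraries and to 61.2 to 66.9 CPM in si-NC libraries, and CD3E and COL1A2 had no read. CD68 was the largest part, averaging 45.4 CPM in si-KNSTRN cells and 32.6 CPM in si-NC cells. Of the 6 that passed the filter on low counts, edgeR called CD68 higher, PDGFRB and COL1A1 lower, and 3 neither (adjusted p under 0.05).

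Glycolysis splits glucose into pyruvate in the cytosol and yields ATP without oxygen. Its flux is set mainly by glucose uptake, hexokinase and phosphofructokinase, and the last of these is driven by fructose 2,6-bisphosphate. Pyruvate is then reduced to lactate and exported, or carried into mitochondria and turned into acetyl-CoA by the pyruvate dehydrogenase complex, which the kinases PDK1, PDK2 and PDK3 switch off. Tumour cells often run glycolysis fast even with oxygen present, and many of these genes are known targets of the hypoxia-inducible factors.

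Most genes of the glycolytic chain were lower after si-KNSTRN, while the genes that bring pyruvate into mitochondria were higher. At an adjusted p under 0.05 in edgeR's quasi-likelihood test, 24 of the 38 genes (63.2%) were lower in si-KNSTRN cells, 9 (23.7%) were higher and 5 were not called. Across all 12650 genes tested, 31.3% were called lower and 31.2% higher, so the share of lower genes was above this background and the share of higher genes below it. The median log2 fold change was -0.38 over the 38 genes and -0.01 over all genes tested. Abundant genes are called more easily, and among the 2010 genes that averaged at least 100 CPM, 33.1% were called lower and 36.3% higher, while 17 of the 24 genes described here at that level were lower and 3 higher. In RNA from whole cultures, fewer cells of a type and less RNA per cell cannot be told apart.

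The direction differed along the pathway. Of 20 genes from glucose uptake to pyruvate kinase, 16 were lower and 3 higher, with a median log2 fold change of -0.57. Of 4 lactate genes, 2 were lower and 1 higher. Among 7 genes of pyruvate entry, 4 were higher and 2 lower, with a median of 0.23, and among 7 genes of glycogen and its precursors, 4 were lower and 1 higher, with a median of -0.28. The changes were mostly moderate: 12 of the 24 lower genes had changed at least 1.5-fold and 4 at least 2-fold, against 3 and 1 of the 9 higher genes. In 37 of the 38 genes, LDHB being the exception, the CPM of the 3 si-KNSTRN libraries did not overlap those of the 3 si-NC libraries. The same count was not made over all genes tested, so it cannot be read as particular to the 38.

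**Figure D1:**
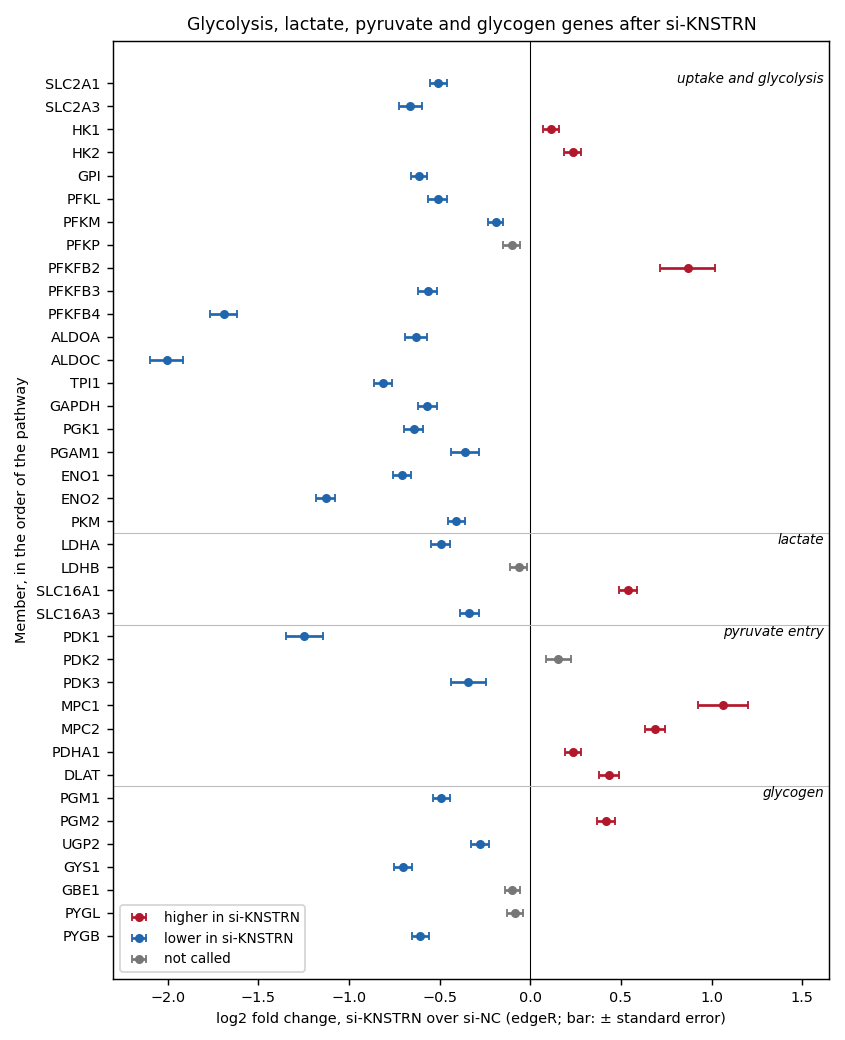
Log2 fold change of each of the 38 genes in si-KNSTRN over si-NC cells (edgeR, 3 libraries per group), in pathway order from top to bottom, with bars of ± 1 standard error and colours for the call at an adjusted p under 0.05. Points from GPI to PKM lie left of 0 except PFKFB2, and those of MPC1, MPC2, PDHA1 and DLAT lie right of it.

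The glucose transporter genes SLC2A1 and SLC2A3 fell. SLC2A1, which encodes the widespread transporter GLUT1, had 179, 181 and 172 CPM in si-KNSTRN libraries 1 to 3, against 261, 256 and 239 CPM in si-NC libraries 1 to 3. It fell by 0.51 on the log2 scale (adjusted p = 1.1e-07, SE 0.047). SLC2A3, the gene of the high-affinity transporter GLUT3, fell to 63.2% of its si-NC level, with 28.1, 29.5 and 26.7 CPM in si-KNSTRN libraries, against 44.8, 44.6 and 43.9 CPM in si-NC libraries. The fitted changes of both transporters lay near each other (log2 fold changes -0.51 and -0.66), and 23.0% of the 50-base windows of SLC2A3 also occur in other genes of the table, chiefly in SLC2A14. Transporter genes outside the 38 went both ways, SLC2A6 and SLC2A8 being higher (log2 fold changes 0.34 and 0.31) and SLC2A10 and SLC2A12 lower (-0.99 and -0.92). The hexokinase genes, whose products trap glucose in the cell as glucose 6-phosphate, were higher. HK2, the hexokinase typical of muscle and tumours, had 83.2, 85.3 and 81.3 CPM in si-KNSTRN libraries, against 70.0, 71.0 and 71.5 CPM in si-NC libraries, with a log2 fold change of 0.23 (adjusted p = 0.00027, SE 0.045). HK1 had 558, 573 and 576 CPM in si-KNSTRN libraries, against 530.3, 535 and 511 CPM in si-NC libraries, a rise of 0.11 on the log2 scale (adjusted p = 0.033, SE 0.044). The call of HK1 was lost with upper-quartile scaling (adjusted p = 0.18) and without si-KNSTRN library 2 or any single si-NC library (adjusted p from 0.053 to 0.11).

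GPI, whose product turns glucose 6-phosphate into fructose 6-phosphate, had 409.8, 415 and 398 CPM in si-KNSTRN libraries, against 631, 642 and 600.5 CPM in si-NC libraries, a change of -0.62 (adjusted p = 8.4e-09, SE 0.046) on the log2 scale. The genes of phosphofructokinase, the committed step, differed among themselves. PFKL, the liver-type subunit, had 245, 247 and 247 CPM in si-KNSTRN libraries, against 358, 371 and 325 CPM in si-NC libraries, and fell by 0.51 on the log2 scale. The muscle-type subunit PFKM fell less, by 0.19 (SE 0.043, adjusted p = 0.00097). PFKP, the platelet-type subunit, was not called, with 529, 539 and 543 CPM in si-KNSTRN libraries, against 584, 596 and 549 CPM in si-NC libraries (log2 fold change -0.10, adjusted p = 0.066, SE 0.046). PFKP had the highest level per length of these forms, at 202 CPM per kb in si-KNSTRN cells and 217 in si-NC cells, against 84.6 and 121 for PFKL and 42.5 and 48.5 for PFKM. The form with the highest level was thus the one whose change did not pass the test, although PFKP was called lower with upper-quartile scaling, by limma-voom and without si-NC library 3 (adjusted p = 0.015, 0.047 and 0.013).

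The bifunctional enzymes that make and break fructose 2,6-bisphosphate had fitted changes from -1.69 to 0.87 on the log2 scale, the widest range of any step. PFKFB4 (chromosome 3, 48517684 to 48563136, GRCh38.p14) had 21.6, 21.7 and 18.1 CPM in si-KNSTRN libraries, against 67.5, 69.4 and 61.6 CPM in si-NC libraries. It fell to 30.9% of its si-NC level, a log2 fold change of -1.69 (adjusted p = 1.5e-11, SE 0.074). PFKFB3, the form with the strongest kinase activity, had 55.1, 56.9 and 50.8 CPM in si-KNSTRN libraries, against 78.4, 82.7 and 80.1 CPM in si-NC libraries, with a log2 fold change of -0.57 (adjusted p = 8.5e-08, SE 0.052). PFKFB2, the heart-type form, was higher, its si-KNSTRN libraries holding 106, 90 and 96 reads and its si-NC libraries 60, 36 and 59. Its log2 fold change was 0.87 (adjusted p = 9.7e-05, SE 0.15), but at 0.729 CPM per kb in si-KNSTRN cells and 0.396 in si-NC cells it stayed far below PFKFB3, at 12.1 and 17.9. The levels of all 3 forms per length therefore came mainly from PFKFB3 and PFKFB4.

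From aldolase to pyruvate kinase, every one of the 9 genes was lower. ALDOC (chromosome 17, 28573120 to 28576895), the aldolase known from brain, showed the largest fall of the 38 genes, with 19.9, 17.5 and 13.9 CPM in si-KNSTRN libraries, against 69.2, 72.8 and 64.4 CPM in si-NC libraries. Its level came to 24.9% of that in si-NC cells (log2 fold change -2.01, adjusted p = 2.5e-11, SE 0.092), and the groups lay far apart. ALDOA, the main aldolase, had 1693, 1687 and 1529 CPM in si-KNSTRN libraries, against 2609.7, 2667 and 2326 CPM in si-NC libraries (log2 fold change -0.63, adjusted p = 1.0e-07, SE 0.058). The ALDOA transcript shares 81.6% of its 50-base windows with other annotated genes, none of them matched by name in the table. It also overlaps LOC112694756, a separate row with 489 reads over all libraries, against 230530 for ALDOA. TPI1, whose product interconverts the triose phosphates, had 1222, 1205 and 1145 CPM in si-KNSTRN libraries, against 2101, 2172 and 1990.0 CPM in si-NC libraries, and fell by 0.81 on the log2 scale (adjusted p = 9.1e-10, SE 0.050).

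GAPDH, the oxidising step of glycolysis and a common reference gene in RNA assays, was itself lower. It had 6637, 6522 and 6109.6 CPM in si-KNSTRN libraries, against 9911, 9777 and 8892 CPM in si-NC libraries, or 6423 ± 277 CPM in si-KNSTRN cells and 9527 ± 554 CPM in si-NC cells (SD, n = 3 each). The log2 fold change was -0.57 (adjusted p = 1.0e-07, SE 0.053), and no si-KNSTRN library reached the lowest si-NC library. PGK1, which makes the first ATP of the pathway, had 1539, 1519 and 1383 CPM in si-KNSTRN libraries, against 2288, 2349 and 2302 CPM in si-NC libraries, and fell by 0.64 on the log2 scale (adjusted p = 1.5e-08, SE 0.050). PGAM1, the mutase, fell to 77.9% of its si-NC level with a wider spread, with 1411, 1453 and 1108 CPM in si-KNSTRN libraries, against 1682, 1755 and 1665 CPM in si-NC libraries. Library 3 of si-KNSTRN was the lowest of its group here, and PGAM1 shares 43.1% of its windows with other annotated genes and 18.7% with other genes of the table. PGAM4, a near-identical copy in part of its sequence, had 10.1, 7.81 and 31.2 CPM in si-KNSTRN libraries, against 8.87, 11.5 and 10.0 CPM in si-NC libraries, so that it was highest in the si-KNSTRN library in which PGAM1 was lowest, and whether reads were exchanged between them was not tested. The enolase genes fell by unequal amounts. ENO1, the common form, had 3691, 3723 and 3506 CPM in si-KNSTRN libraries, against 6145, 6062 and 5653 CPM in si-NC libraries (log2 fold change -0.71). ENO2 (chromosome 12, 6914580 to 6923697), the neuronal form, had 109, 106 and 95.6 CPM in si-KNSTRN libraries, against 233, 230.3 and 216 CPM in si-NC libraries, which is 45.7% of the si-NC level. PKM, the pyruvate kinase gene, had 4624, 4647 and 4509 CPM in si-KNSTRN libraries, against 6156, 6291 and 5838 CPM in si-NC libraries, and fell by 0.41 on the log2 scale (adjusted p = 1.2e-06, SE 0.047).

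**Figure D2:**
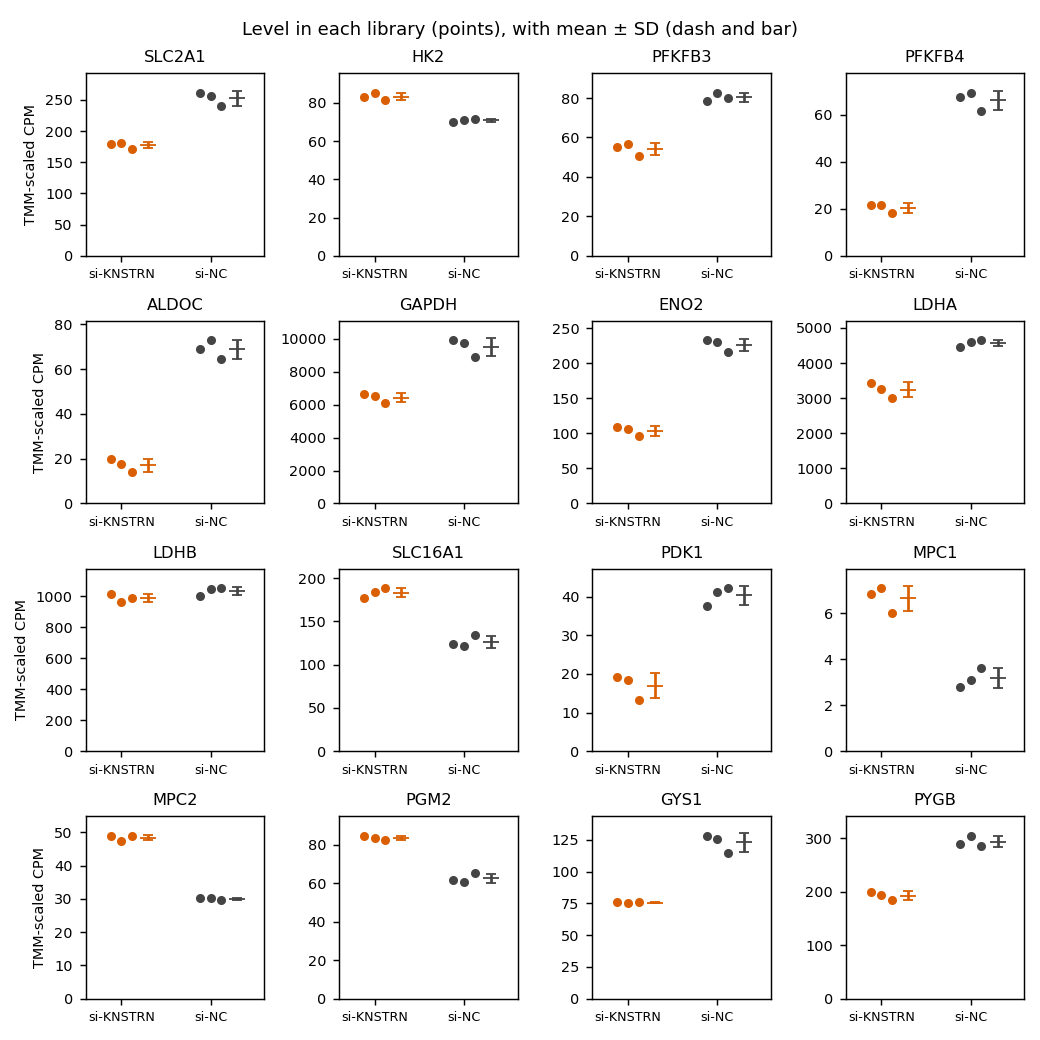
TMM-scaled CPM of 16 of the 38 genes in each library, si-KNSTRN left and si-NC right, with points for libraries 1 to 3 in order and a dash and bar for the mean ± SD; each axis starts at 0. ALDOC, PFKFB4, PDK1 and ENO2 show the widest gaps downward and MPC1 the widest upward, and LDHB is the gene whose groups overlap.

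The promoters of the 4 genes that fell most and of both pyruvate carrier genes are shown because they hold different numbers of a short word. The hypoxia-inducible factors bind DNA at sites built on ACGTG or GCGTG. RefSeq windows from 250 bases before to 50 bases after the start (GRCh38.p14) were found for 35 of the 38 genes, 68 windows in all, and SLC2A3, PFKFB2 and SLC16A1 did not match. In the sequences, given 5′ to 3′ on the gene's strand, capitals mark ACGTG or GCGTG on either strand (CACGT and CACGC read from the other strand, and CACGTG counts on both).
ALDOC (chr17:28576846-28577145, minus strand): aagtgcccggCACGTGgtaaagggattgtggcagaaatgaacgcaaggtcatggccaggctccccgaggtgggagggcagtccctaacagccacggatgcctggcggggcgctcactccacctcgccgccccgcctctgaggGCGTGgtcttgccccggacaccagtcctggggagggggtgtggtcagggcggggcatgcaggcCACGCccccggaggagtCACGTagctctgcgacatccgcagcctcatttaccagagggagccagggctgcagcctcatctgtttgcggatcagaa
PFKFB4 (chr3:48556754-48557053, minus strand): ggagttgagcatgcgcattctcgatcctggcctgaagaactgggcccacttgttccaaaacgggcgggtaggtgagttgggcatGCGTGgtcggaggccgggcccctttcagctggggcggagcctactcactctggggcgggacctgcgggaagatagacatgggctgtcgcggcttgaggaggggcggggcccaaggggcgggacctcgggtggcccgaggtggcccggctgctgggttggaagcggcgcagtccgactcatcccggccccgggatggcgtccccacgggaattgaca
PDK1 (chr2:172555123-172555422, plus strand): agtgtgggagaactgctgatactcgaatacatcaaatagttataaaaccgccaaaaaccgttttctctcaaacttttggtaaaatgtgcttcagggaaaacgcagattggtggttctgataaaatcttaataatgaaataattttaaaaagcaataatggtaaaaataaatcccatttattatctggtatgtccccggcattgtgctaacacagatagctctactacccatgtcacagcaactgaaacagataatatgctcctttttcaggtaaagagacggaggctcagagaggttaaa
PDK1 (chr2:172555840-172556139, plus strand): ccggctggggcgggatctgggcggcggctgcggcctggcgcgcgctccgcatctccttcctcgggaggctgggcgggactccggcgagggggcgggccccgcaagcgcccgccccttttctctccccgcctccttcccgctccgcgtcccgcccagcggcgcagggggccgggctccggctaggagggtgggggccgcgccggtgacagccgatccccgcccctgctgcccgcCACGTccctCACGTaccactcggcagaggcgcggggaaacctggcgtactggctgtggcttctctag
ENO2 (chr12:6914330-6914629, plus strand): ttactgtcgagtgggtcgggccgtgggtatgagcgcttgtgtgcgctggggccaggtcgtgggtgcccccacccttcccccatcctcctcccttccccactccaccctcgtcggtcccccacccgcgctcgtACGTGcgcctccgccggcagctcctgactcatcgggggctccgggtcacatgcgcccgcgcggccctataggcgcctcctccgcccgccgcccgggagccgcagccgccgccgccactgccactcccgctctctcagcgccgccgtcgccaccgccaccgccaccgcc
MPC1 (chr6:166382891-166383190, minus strand): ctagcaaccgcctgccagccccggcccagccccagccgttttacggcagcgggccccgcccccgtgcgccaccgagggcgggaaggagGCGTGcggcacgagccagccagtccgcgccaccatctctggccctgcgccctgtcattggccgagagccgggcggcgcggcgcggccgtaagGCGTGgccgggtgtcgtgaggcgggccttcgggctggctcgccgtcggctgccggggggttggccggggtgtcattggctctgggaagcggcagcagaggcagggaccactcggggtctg
MPC2 (chr1:167937023-167937322, minus strand): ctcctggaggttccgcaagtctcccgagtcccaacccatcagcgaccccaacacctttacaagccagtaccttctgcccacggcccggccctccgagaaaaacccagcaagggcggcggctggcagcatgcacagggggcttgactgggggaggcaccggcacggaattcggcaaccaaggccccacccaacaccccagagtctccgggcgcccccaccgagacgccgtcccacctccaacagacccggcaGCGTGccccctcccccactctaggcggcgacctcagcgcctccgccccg

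The ALDOC window held 5 such words, the PFKFB4 and ENO2 windows 1 each, and the PDK1 windows none and 2. Windows of the higher genes held the word too, with 2 in MPC1 and 1 in the MPC2 window shown. Of the other MPC2 windows, which are not printed, chr1:167937020-167937319 holds 1, and chr1:167935947-167936246 holds 0. Of 42 windows of lower genes, 30 (71.4%) held at least 1, as did 10 of 16 windows of higher genes (62.5%). Counted by gene, the order turned: 22 of 23 lower genes (95.7%) and 7 of 7 higher genes (100%) had at least 1 window with the word, against 69.9% of tested genes. The shares by gene are not like for like, since a gene with more windows can hold the word more easily. The genes described here had 68 windows for 35 genes, and all tested genes 15032 for 10272. By window, 66.2% of the 68 held the word. HK1 alone gave 7 of the 16 windows of higher genes, and 2 of these 7 held the word. The share by window was 60.2% over the 15032 windows of all genes tested with an entry and 48.4% over all 35116 windows. Several windows of one gene overlap, and the presence of the word is a description of the sequence, not of binding.

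The 3′ untranslated regions were searched for TGAGTA, a word met more often among all lower genes of these data (35.5% of 3767) than among higher genes (19.3% of 3762) in GENCODE release 29 transcripts. Presence was counted in regions of at least 50 bases and was not adjusted for their length, and longer regions can hold the word more easily. Of the 38 genes, 11 (28.9%) held it, against 27.3% of 11951 genes tested. The word was in 5 of the 24 lower genes (20.8%) and in 4 of the 9 higher genes (44.4%). Sites of 3 lower and 3 higher genes are shown, with 12 bases to each side and the word in capitals, because they lie in genes that moved in opposite directions. The word was picked with earlier results of these data known.
ALDOC: tgactcatgcctTGAGTAcataccatacag
PFKFB3: cctggttggaatTGAGTAggaactgaggct
PGK1: agaattttagccTGAGTAtcactttttgag
HK2: ttatttagttctTGAGTAgatctgcttctt
MPC2: aaaacaacttttTGAGTAatactataacct
DLAT: aatgtgtaatttTGAGTAcagaattcaaca
Of the 4 genes with the largest falls, ALDOC held 1 site, PDK1 held 6 in a 3′ region of 12700 bases, and PFKFB4 and ENO2 held none in the transcript searched.

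Lactate genes differed by isoform. LDHA, the lactate dehydrogenase subunit that favours lactate formation, had 3437, 3273 and 3004 CPM in si-KNSTRN libraries, against 4464, 4587 and 4644 CPM in si-NC libraries, with a log2 fold change of -0.50 (adjusted p = 5.0e-07, SE 0.053). LDHB, the subunit typical of heart, had 1014, 962 and 988 CPM in si-KNSTRN libraries, against 1001, 1045 and 1051 CPM in si-NC libraries. Its groups overlapped and it was not called (log2 fold change -0.06, adjusted p = 0.24, SE 0.046), and 58.5% of its windows occur in other genes, none of which is in the table. The transporters of lactate and pyruvate across the cell membrane went in opposite directions. SLC16A1, the gene of MCT1, had 177, 184 and 188 CPM in si-KNSTRN libraries, against 123, 121 and 134 CPM in si-NC libraries, and rose by 0.54 on the log2 scale (SE 0.049, adjusted p = 8.1e-08). SLC16A3, the gene of the lactate exporter MCT4, had 753, 777 and 757 CPM in si-KNSTRN libraries, against 985, 1011 and 891 CPM in si-NC libraries, with a log2 fold change of -0.34 (adjusted p = 2.7e-05, SE 0.052). Per length, SLC16A3 remained the higher of both in si-KNSTRN cells, at 158 CPM per kb against 41.9 for SLC16A1.

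MPC1 and MPC2, the carrier genes, and PDHA1 and DLAT of the pyruvate dehydrogenase complex rose, while PDK1, the gene of a kinase that blocks their use, fell. MPC1 (chromosome 6, 166364919 to 166382940), a subunit of the mitochondrial pyruvate carrier, was read 135, 128 and 112 times in the si-KNSTRN libraries, against 57, 50 and 66 reads in si-NC libraries. Its level was 209% of that in si-NC cells (log2 fold change 1.07, adjusted p = 4.4e-06, SE 0.14), the largest rise of the 38 genes, from few reads. Its partner subunit MPC2 had 49.0, 47.5 and 48.8 CPM in si-KNSTRN libraries, against 30.2, 30.3 and 29.8 CPM in si-NC libraries (log2 fold change 0.69, adjusted p = 2.9e-08, SE 0.057). Both subunits, which work as a pair in the inner membrane, were thus higher in every si-KNSTRN library than in any si-NC library. PDHA1, the catalytic E1 subunit of pyruvate dehydrogenase, rose by 0.23 (SE 0.044), and DLAT, the E2 subunit, by 0.43 (SE 0.055). DLAT had 81.3, 76.9 and 88.9 CPM in si-KNSTRN libraries, against 60.2, 60.1 and 62.5 CPM in si-NC libraries.

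PDK1 (chromosome 2, 172555373 to 172724312), a pyruvate dehydrogenase kinase induced by hypoxia, had 19.2, 18.5 and 13.3 CPM in si-KNSTRN libraries, against 37.6, 41.4 and 42.3 CPM in si-NC libraries. It fell by 1.25 on the log2 scale (adjusted p = 2.2e-08, SE 0.10) and reached 42.1% of its si-NC level. PDK3 fell less, by 0.34 (SE 0.095, adjusted p = 0.0049), and PDK2 was not called, at 0.16 (adjusted p = 0.068, SE 0.071). PDK2 was called higher once libraries were scaled by their totals (adjusted p = 0.030). Of the 3 kinase genes, 2 were thus lower, PDK1 by the larger amount.

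Of the 7 glycogen genes, 4 fell, with members on both the synthetic and the degradative side. GYS1, the glycogen synthase gene outside the liver, had 76.0, 75.1 and 75.8 CPM in si-KNSTRN libraries, against 128, 126 and 115 CPM in si-NC libraries, and fell by 0.70 on the log2 scale (adjusted p = 5.1e-09, SE 0.050). UGP2, which makes the UDP-glucose that glycogen synthase uses, had a log2 fold change of -0.28 (adjusted p = 0.00015, SE 0.050). PYGB, the brain-type glycogen phosphorylase, had 200.5, 194 and 184 CPM in si-KNSTRN libraries, against 290.0, 305 and 286 CPM in si-NC libraries (log2 fold change -0.61, adjusted p = 1.5e-08, SE 0.048). PYGL, the liver-type phosphorylase, was not called, with 216, 210.2 and 208 CPM in si-KNSTRN libraries, against 219, 226 and 227 CPM in si-NC libraries, with a log2 fold change of -0.08 (adjusted p = 0.10, SE 0.043). GBE1, the branching enzyme gene, was at -0.10 (adjusted p = 0.051, SE 0.042), just outside the threshold, and was called lower with upper-quartile scaling, by limma-voom and with a filter of at least 1 CPM in 3 libraries (adjusted p = 0.0085, 0.043 and 0.043). PYGL was also called lower with upper-quartile scaling (adjusted p = 0.019). PGM1 and PGM2, grouped here as phosphoglucomutase genes, moved in opposite directions. PGM1, whose product links glycogen to glycolysis, stayed above PGM2 in every library. PGM1 had 142, 138 and 131 CPM in si-KNSTRN libraries, against 195, 196 and 186 CPM in si-NC libraries, and PGM2 had 84.6, 83.7 and 82.2 CPM in si-KNSTRN libraries, against 61.7, 60.5 and 65.3 CPM in si-NC libraries. Their log2 fold changes were -0.49 (SE 0.047) and 0.42 (SE 0.047).

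The levels of the genes of a step were also added per length. Some steps hold alternative forms of an enzyme, where the sum shows how far a second form offset the first. The pyruvate carrier and pyruvate dehydrogenase steps hold partner subunits, and UGP2, GYS1 and GBE1 encode different enzymes, so their sums show no such offset. Levels were summed as CPM per kb of 1 GENCODE transcript per gene. The sums of all 20 steps did not overlap between the groups, 17 being lower and 3 higher in si-KNSTRN cells, with the smallest p that an exact permutation test can give with 3 libraries per group (p = 0.1, two-sided). Sums of other genes were not made, so the lack of overlap cannot be read as particular to these steps. Control of fructose 2,6-bisphosphate showed the lowest percentage, with 18.5 ± 1.26 CPM per kb in si-KNSTRN cells and 36.8 ± 1.30 in si-NC cells (SD, n = 3 each), which is 50.4% of the si-NC sum. Triose phosphate isomerase came to 57.0%, enolase to 60.7%, aldolase to 63.7% and phosphofructokinase, with PFKP not called, to 85.3%. Lactate dehydrogenase came to 77.4% and lactate transport to 87.5%. The pyruvate carrier rose to 170.3% of its si-NC sum, with 29.2 ± 0.453 CPM per kb in si-KNSTRN cells and 17.1 ± 0.330 in si-NC cells, pyruvate dehydrogenase (PDHA1 and DLAT) to 122% and hexokinase to 109%. The pyruvate dehydrogenase sum leaves out PDHB, PDHX and DLD, further genes of the complex. The sum of the kinases (83.2%) gives PDK1 little weight, since its transcript counts as 14193 bases.

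**Figure D3:**
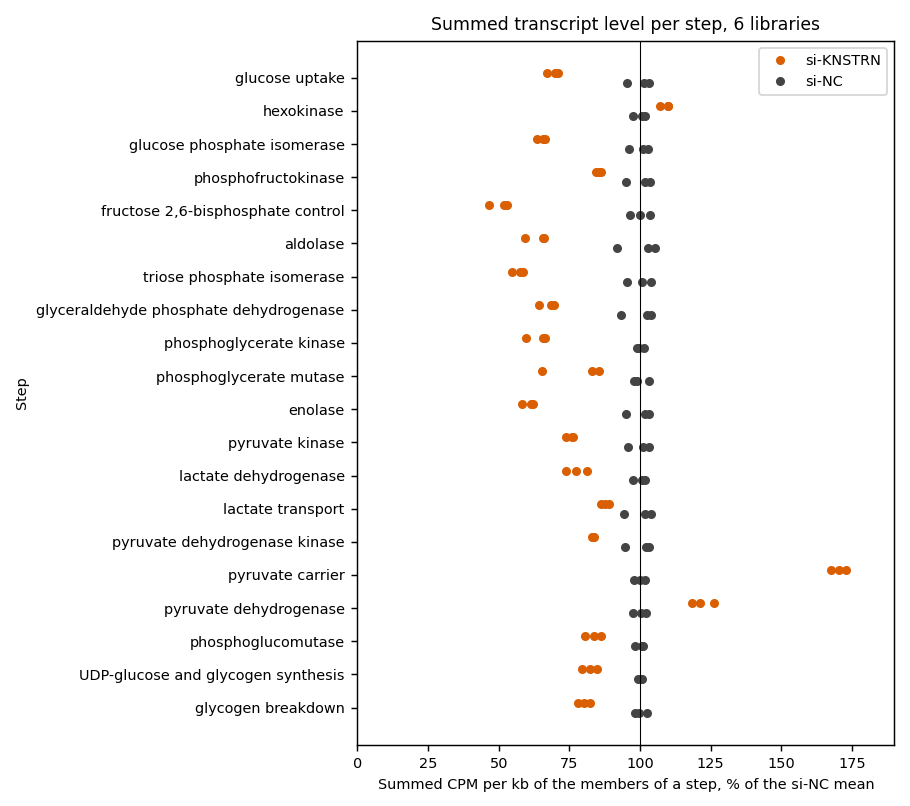
Summed CPM per kb of the genes of each step in every library, as a percentage of the si-NC mean of that step, with si-KNSTRN above si-NC in each row. The si-KNSTRN libraries lie left of 100% in 17 steps and right of it for hexokinase, the pyruvate carrier and pyruvate dehydrogenase.

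These genes make up a visible part of the library. Together they took 3.01, 3.00 and 2.86% of all counted reads in si-KNSTRN libraries 1 to 3, against 4.15, 4.18 and 3.97% in si-NC libraries 1 to 3. Those from uptake to pyruvate kinase took 2.33, 2.34 and 2.22% in si-KNSTRN libraries and 3.35, 3.36 and 3.14% in si-NC libraries, and those of pyruvate entry took 0.0349, 0.0343 and 0.0362% in si-KNSTRN libraries and 0.0293, 0.0299 and 0.0309% in si-NC libraries. The groups did not overlap in any of these shares (exact permutation test, two-sided p = 0.1, the smallest possible). Shares of other gene sets were not taken for comparison. The 9 genes with a mean of at least 1000 CPM in si-NC cells had log2 fold changes between -0.81 and -0.06, with 8 lower, and only LDHB not called. The share of lower genes among all genes at that level was not counted, so this cannot be read as particular to these 9. They were also picked on their si-NC level alone, which can tilt the pick toward genes lower in si-KNSTRN cells.

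Ratios between 2 genes of one library do not depend on how libraries are scaled. In 15 of 16 pairs the ratios of read counts did not overlap between the groups, and each of these reached the smallest exact two-sided permutation p of 0.1 (0.11 after Benjamini-Hochberg adjustment over 16 pairs), so no pair could pass 0.05. Pairs of other genes were not examined, so this count cannot be read as particular to these pairs. Among pairs in which the form with the lower count lost ground, ALDOC over ALDOA was 0.0118, 0.0104 and 0.00910 in si-KNSTRN libraries and 0.0265, 0.0273 and 0.0277 in si-NC libraries, a difference of -1.39 in the mean log2 ratio. PFKFB4 over PFKFB3 was 0.392, 0.381 and 0.357 in si-KNSTRN libraries and 0.862, 0.839 and 0.769 in si-NC libraries (-1.13), and ENO2 over ENO1 was 0.0296, 0.0284 and 0.0273 in si-KNSTRN libraries and 0.0379, 0.0380 and 0.0383 in si-NC libraries (-0.42). In these pairs the form with the lower count fell further. Per length, PFKFB4 over PFKFB3 was 0.471 in si-KNSTRN cells and 1.03 in si-NC cells, so PFKFB4 was not the minor form in si-NC cells. In other pairs the ratio shifted toward the form that was not called lower. LDHB over LDHA was 0.295, 0.294 and 0.329 in si-KNSTRN libraries and 0.224, 0.228 and 0.226 in si-NC libraries (0.43). SLC16A3 over SLC16A1 was 4.24, 4.22 and 4.01 in si-KNSTRN libraries and 7.98, 8.35 and 6.66 in si-NC libraries (-0.87), and PGM2 over PGM1 was 0.595, 0.608 and 0.627 in si-KNSTRN libraries and 0.317, 0.308 and 0.351 in si-NC libraries (0.91). PYGL over PYGB was 1.08, 1.09 and 1.13 in si-KNSTRN libraries and 0.754, 0.742 and 0.795 in si-NC libraries. Per length, its mean ratio was 1.49 in si-KNSTRN cells and already 1.04 in si-NC cells, so the higher form did not change. GYS1 over PYGB, the synthase against the phosphorylase, was the pair that overlapped, at 0.379, 0.388 and 0.412 in si-KNSTRN libraries and 0.442, 0.412 and 0.401 in si-NC libraries (exact permutation p = 0.2).

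**Figure D4:**
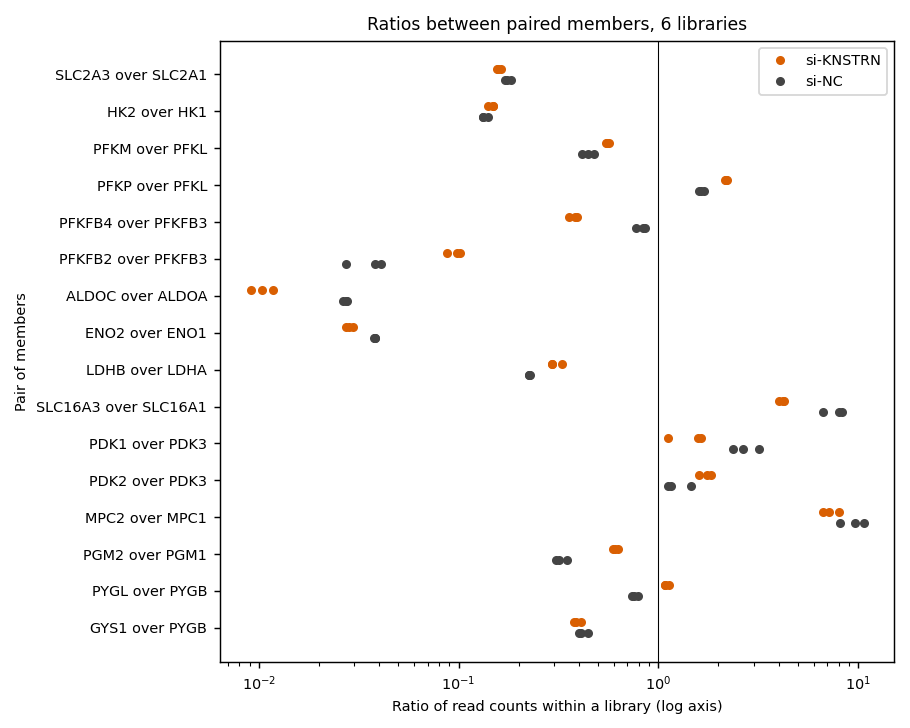
Ratio of read counts of 16 pairs of genes within each library on a log axis, with si-KNSTRN above si-NC in each row; ratios are not corrected for transcript length. The groups are apart in 15 pairs, most widely in PFKFB2 over PFKFB3 and ALDOC over ALDOA, and overlap in GYS1 over PYGB.

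Of 76 further genes of the same pathways in 3 lists, 51 were tested, and 13 were higher, 17 lower and 21 not called, with a median log2 fold change of -0.03. These counts lie near the shares over all genes tested (31.2% higher and 31.3% lower) and show nothing particular to the lists. In the glycolysis and gluconeogenesis list (17 tested, 6 higher and 5 lower), TIGAR, which lowers fructose 2,6-bisphosphate, and BPGM, which makes 2,3-bisphosphoglycerate, rose by 1.10 and 0.61 on the log2 scale, and SLC2A10 and PGAM2 had -0.99 and -0.85. The glycogen list (20 tested, 4 higher and 7 lower) held PPP1R3C, a subunit that targets a phosphatase to glycogen, at 35.6% of its si-NC level (log2 fold change -1.49). The glycogen synthase kinase genes GSK3B and GSK3A rose by 0.58 and 0.45, and PHKA2, a phosphorylase kinase subunit, had -0.48. In the lactate and pyruvate list (14 tested, 3 higher and 5 lower), the pyruvate dehydrogenase phosphatase subunit PDPR fell by 0.96 and EMB, a partner of lactate transporters, by 0.44. Of the other pyruvate dehydrogenase genes, PDHB, the E1 partner of PDHA1, was not called, with overlapping groups (log2 fold change -0.03, adjusted p = 0.64 by edgeR), and PDHX, the E3-binding subunit, was higher (0.20). DLD, the E3 subunit, and the citrate synthase gene CS rose by 0.29 and 0.18.

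Library 3 of si-KNSTRN stood somewhat apart within its group. It was the lowest of the 3 si-KNSTRN libraries in 19 of the 24 lower genes, and si-NC library 3 was the lowest of its own group in 17 of them. Without si-KNSTRN library 3, 24 of the 38 genes were lower and 9 higher, as with all libraries. Among the 38 genes, 8 share at least 10% of their windows with another gene (SLC2A3, GPI, ALDOA, TPI1, GAPDH, PGAM1, LDHA and LDHB). Without them, 17 of 30 were lower (56.7%) and 9 higher (30%). The share of higher genes was then near that over all genes tested (31.2%), while the share of lower genes stayed above its background (31.3%). The strand setting of the counting is not given in the sources used here, and 11 of the 38 genes overlap another tested gene, among them PFKM (SENP1), PFKFB4 (UCN2), MPC2 (DCAF6) and PYGB (ABHD12).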

How the data were processed

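Total RNA went into SMARTER mRNA libraries, per the labels' protocols. The authors deposited raw counts, a whole number of reads for each gene and library. HISAT2 2.0.1, featureCounts, fastp 0.20.0, FastQC 0.11.5 and the build GRCh38 are named, per the submitters' processing notes, with settings not given in the sources used here. Groups came from sample titles and columns from sample descriptions.

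edgeR 4.0.16 in R 4.3.3 was run on all genes that passed filterByExpr (minimum count 10; 12650 genes), with TMM scaling, a quasi-likelihood test (two-sided, group as the sole term) and Benjamini-Hochberg adjustment over all genes tested. Levels are TMM-scaled CPM, and errors are SD over 3 libraries or an SE of the log2 fold change. This SE, also drawn as bars, was derived as the absolute log2 fold change over the square root of edgeR's F statistic. Ratios of counts used counts + 0.5. Transcript lengths and 3′ untranslated regions came from GENCODE release 29, 1 coding transcript per gene, and gene coordinates and promoters from RefSeq (GRCh38.p14). A window shared with another gene was an identical run of 50 bases. Python 3.11.15, scipy 1.17.1 and matplotlib 3.10.9 were used for summaries and figures. The fit was tested on simulated data. Replicates of a group differed by more than sampling noise (chi-square per degree of freedom 2.16 to 10.3), and none was merged.

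The 38 genes and the other lists were chosen with earlier results of these data known. All 38 genes are named, and of each other list the 4 genes with the smallest p, except 1 gene that is not reported here. SLC2A6, SLC2A8, SLC2A12, PDHB, PDHX, EPAS1, ARNT, HIF1A, MYC and PGAM4 were named after their values were seen. So were CD68, PDGFRB, COL1A1 and the epithelial and bladder markers given with levels. Alternatives were upper-quartile factors, DESeq2-type factors or plain library sizes within edgeR, limma-voom (3.58.1), DESeq2 1.42.0, 2 other filters, a replicate block, a threshold of 0.01 and each library left out.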

Additional observations from a re-analysis of the deposited data

How the results depend on the processing

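Of the 33 genes called, 32 kept their direction and call in all 15 alternatives (3 scalings, DESeq2, limma-voom, 2 filters, the replicate block, each library left out and a threshold of 0.01), and HK1 was the exception. None of the 38 reversed with a call. Leaving out 1 library gave 24 to 25 lower and 8 to 9 higher of the 38, and the other settings 24 to 27 lower and 8 to 10 higher, the extremes with upper-quartile factors (27 and 8) and library size alone (24 and 10). Over all genes, calls ran from 3221 to 4450 lower and from 3284 to 4339 higher. The median log2 fold change of all genes tested was -0.05 with upper-quartile factors and 0.03 with library size alone, and that of the 38 genes -0.43 and -0.35. The KNSTRN log2 fold change stayed between -1.67 and -1.57. In the lactate and pyruvate list, 5 genes were higher with library size alone or without si-KNSTRN library 1 and 3 were lower with the stricter CPM filter or without si-NC library 3.

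Same-numbered libraries of both groups did not deviate together over all genes tested (correlations of -0.063, 0.053 and -0.034, with 1 of 3 libraries nearest to its own number). With 3 libraries per group this check cannot exclude pairing. Library 3 was the lowest of its group in 19 of the 24 lower genes in si-KNSTRN and in 17 of them in si-NC. With the replicate block, 24 of the 38 were lower and 9 higher, and over all genes 3857 lower and 3831 higher. In the 3 further pathway lists together, 12 to 17 genes were higher and 14 to 19 lower over all alternatives. All 112 values of pair ratios with counts + 5 or without 1 library kept their sign. MPC1 and PFKFB2 rest on the fewest reads, and depth limits them most.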

Other observations

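Of 10 tested genes of the pentose phosphate pathway, edgeR called 4 higher and 3 lower, near the shares over all genes tested (31.2% and 31.3%). The ribose 5-phosphate isomerase gene RPIA and the PRPP synthetase gene PRPS2 rose by 0.47 and 0.35 on the log2 scale, and H6PD, the gene of an enzyme of the endoplasmic reticulum, fell by 1.08.

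Among 17 tested regulators and targets of the glucose and hypoxia responses, 3 were higher and 11 lower, with a median log2 fold change of -0.68. Over all genes tested, 31.2% were higher and 31.3% lower. The list was partly chosen on earlier results of these libraries and is not independent evidence. TXNIP, an inhibitor of glucose uptake that glucose itself induces, had 125, 119.9 and 121 CPM in si-KNSTRN libraries, against 231, 226 and 226 CPM in si-NC libraries. CA9, DDIT4 and BNIP3, genes induced by hypoxia, fell by 3.11, 1.63 and 1.15. HIF1A, the gene of the hypoxia factor's oxygen-sensitive subunit, had 245, 236 and 226 CPM in si-KNSTRN libraries, against 216, 211 and 226 CPM in si-NC libraries, with overlapping groups and a log2 fold change of 0.11 (adjusted p = 0.046, SE 0.047), and it was called in 8 of 14 alternative fits. EPAS1, which encodes another oxygen-sensitive subunit, was higher (log2 fold change 0.58, adjusted p = 2.6e-08 by edgeR), and ARNT, the gene of their common partner, was lower (-0.79). MYC was not called by edgeR, at a log2 fold change of -0.03 (adjusted p = 0.69, SE 0.056), nor in any of 14 alternative fits, where its adjusted p ran from 0.28 to 0.9.

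PGAM4 was not called by edgeR, at a log2 fold change of 0.70 (adjusted p = 0.086, SE 0.34), and was called in 3 of 14 alternative fits, with adjusted p from 0.0046 to 0.38. Its si-KNSTRN library 3 held 579 reads, against 141 to 199 in the other si-KNSTRN libraries.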
